A study of Sus scrofa with 6 samples.

Results

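MET, the receptor of hepatocyte growth factor (HGF), the receptors of fibroblast growth factors (FGFs) and the Sprouty proteins that dampen their signal were followed in differentiating satellite cells of the pig (PSCs), which leave the cell cycle and fuse into myotubes. The 10 genes given for this group were MET, FGFR1, FGFR2, FGFR4, FGF2, SPRY1, SPRY2, SPRY4, SPRED1 and DUSP6, chosen by symbol. Of these, 6 were matched to a row of the 28266 rows in the table, and 5 of the 6 had a mean of at least 1 FPKM and were tested among 14060 genes. FPKM is the number of sequenced fragments of a gene per kilobase of its model and scaled to the total fragments of the library. FGF2, SPRY4, SPRED1 and DUSP6 were not analysed here, since their identifiers in the names table all carry numbers above 31070, the highest Ensembl number in the deposited table.

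The cells came from male Yorkshire pigs 3 days old, received negative control (NC) siRNA and were then held in differentiation medium. The NC24h and NC36h groups had 3 libraries each, with replicates numbered 4, 5 and 6. For the later time, 48 h stands in the sample labels and 36 h in the series title and the study's methods, and the name NC36h follows the latter. The NC siRNA is read from the letter N of the library titles, and the H19 siRNA arm of the study was not analysed here. Nothing in the sources used here says whether the replicates came from separate animals or cultures, so the p-values measure the spread between these libraries, which may be technical. Before differentiation the growth medium contained basic FGF, the protein that FGF2 encodes.

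HGF binding to MET, and FGF binding to an FGF receptor, activate the receptor's tyrosine kinase. Adaptor proteins then pass the signal to RAS, RAF, MEK and the kinase ERK, which switches on immediate-early transcription factors such as FOS and EGR1. The same pathway induces its own brakes, among them Sprouty proteins and ERK phosphatases. In satellite cells HGF and FGFs are known as mitogens that hold back differentiation, and FGFR1 and FGFR4 are the FGF receptors that myoblasts are known for.

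The libraries held between 16250222 and 16774534 fragments at NC24h and between 17873849 and 21723087 at NC36h. In the whole table, 50.9% of the genes tested passed the threshold (limma, Benjamini-Hochberg adjusted p under 0.05). As shares of all genes tested, 16.5% passed as higher and 34.4% as lower at NC36h. The median log2 change of all genes tested was -0.16, and median-ratio scaling, which sets the typical gene to no change, brought it to -0.01. The 6 satellite cell and myoblast markers with a row summed to between 2398 and 3110 FPKM at NC24h and to between 4807 and 5240 FPKM at NC36h. DES, which is also on the contractile list, and the fusion gene MYMK made up most of this sum and rose, whereas the myogenic factors MYF5 (84.7 ± 23.9 and 59.9 ± 12.4 FPKM, SD, n = 3) and MYOD1 (315.7 ± 66.3 and 254.2 ± 7.12 FPKM) had lower means at NC36h that did not pass the test. The leukocyte marker PTPRC and the endothelial marker KDR were at 0 in all 6 libraries, and the other leukocyte markers CD68 and CD14 did not exceed 3.29 FPKM. The other endothelial marker, PECAM1, was between 1.01 and 1.67 FPKM over the 6 libraries. The extraction text of the labels names endometrium. Of 6 endometrium markers with a row, PGR was at 0 in all 6 libraries and EPCAM, KRT18 and ESR1 stayed under 1 FPKM, while CDH1 was at most 0.430 FPKM at NC24h and at most 4.36 FPKM at NC36h. HOXA11 was present in every library, between 2.75 and 3.57 FPKM. Of 4 fibroblast markers with a row, COL3A1 took most of the summed level. The sum was 226.5 to 295.6 FPKM at NC24h and 394.4 to 534.0 FPKM at NC36h. COL3A1 was higher at NC36h (limma adjusted p = 0.00446), whereas DCN and LUM were lower (adjusted p = 0.000640 and 0.00149). PDGFRA did not exceed 0.680 FPKM and was not tested. The part of these cells in the results below was not tested, and in bulk RNA fewer cells of a type cannot be told apart from less RNA per cell.

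A pair of libraries stood apart within their groups over all genes tested, NC36h replicate 6 only in genes that it had higher. NC24h replicate 6 was at least 2-fold above both other libraries of its group in 266 genes (1.89%). NC36h replicate 6 was so in 109 genes (0.775%), against 14 to 52 genes for the other 4 libraries. NC24h replicate 6 was at least 2-fold below both others in 319 genes (2.27%). NC36h replicate 6 was so in 73 genes (0.519%), against 54 to 90 genes for the other 4 libraries. NC24h replicate 6 had the highest level of the cell cycle gene TOP2A, with 36.4 FPKM against 12.7 and 18.3 FPKM in replicates 4 and 5. It also had the lowest level of the slow troponin TNNC1, with 422.5 FPKM against 1050 and 869.9 FPKM. NC36h replicate 6 had the immediate-early genes high, and its values are given below with the ERK-responsive genes.

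Both growth factor receptors known for myoblasts and MET were lower at NC36h, whereas neither Sprouty gene passed the test. Of the 5 members tested, 0 were higher and 3 were lower at NC36h (MET, FGFR1 and FGFR4), beside 34.4% of all genes tested that were lower. In the same 3 genes every NC36h library lay below every NC24h library, as in 42.6% of all genes tested. The median log2 change of the 5 members was -0.64, and with so few genes neither this nor the count is read as particular to them.

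MET (ENSSSCG00000024351) lies on chromosome 18 from 29426044 to 29541526 in the RefSeq annotation of Sscrofa11.1. It stood at 29.8, 33.0 and 55.8 FPKM in NC24h replicates 4, 5 and 6 and at 16.0, 15.0 and 14.9 FPKM in NC36h replicates 4, 5 and 6. The groups did not overlap, the 3 NC36h libraries lay close together, and NC24h replicate 6 was well above the rest of its group. The mean went from 39.5 ± 14.2 to 15.3 ± 0.611 FPKM (SD, n = 3), resting on 7413 and 3510 fragments. MET fell by 1.26 on the log2(FPKM + 1) scale (SE 0.22, 95% interval -1.78 to -0.74, limma adjusted p = 0.00424), the largest change among the members. Without NC24h replicate 6 it fell by 0.99 (adjusted p = 0.000451), beside 34.6% of all genes tested that were then lower, and under median-ratio scaling by 1.09 (adjusted p = 0.00619).

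FGFR4 (ENSSSCG00000014047; chromosome 2, 80841536 to 80853791) was the highest member in every library. It stood at 223.7, 261.8 and 337.5 FPKM in NC24h replicates 4, 5 and 6 and at 159.0, 151.5 and 167.8 FPKM in the NC36h libraries of the same numbers. Each NC24h value was above each NC36h value, again with replicate 6 highest at NC24h. FGFR4 fell by 0.76 on the log2 scale (SE 0.15, 95% interval -1.11 to -0.41, limma adjusted p = 0.00601), from a mean of 274.4 ± 57.9 to 159.4 ± 8.17 FPKM (SD, n = 3). It nevertheless kept a high level, above 97.8% of the genes tested at NC24h and above 96.0% at NC36h.

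FGFR1 (ENSSSCG00000015815; chromosome 15, 48053895 to 48106634), the other main FGF receptor of these libraries, stood at 85.9, 103.4 and 121.2 FPKM at NC24h and at 65.6, 63.3 and 67.9 FPKM at NC36h, in the order of replicates 4, 5 and 6. The groups did not overlap. FGFR1 fell by 0.64 on the log2 scale (SE 0.12, 95% interval -0.93 to -0.35, limma adjusted p = 0.00601), from 103.5 ± 17.7 to 65.6 ± 2.30 FPKM (SD, n = 3). Without NC24h replicate 6, FGFR4 fell by 0.60 (adjusted p = 0.00225) and FGFR1 by 0.52 (adjusted p = 0.00427), and under median-ratio scaling by 0.59 (adjusted p = 0.0122) and 0.46 (adjusted p = 0.0145). In every one of the alternatives tried, all 3 receptors stayed past the threshold.

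FGFR2 (ENSSSCG00000010698; chromosome 14, 131183095 to 131285001), a receptor better known from epithelia, was close to undetected. Its values were 0.131, 0.271 and 0.203 FPKM at NC24h and 0.160, 0.152 and 0.123 FPKM at NC36h. These were 9 fragments over the NC24h libraries and 8 over the NC36h libraries, so no difference was detectable at this depth and it was not tested.

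**Figure D1:**
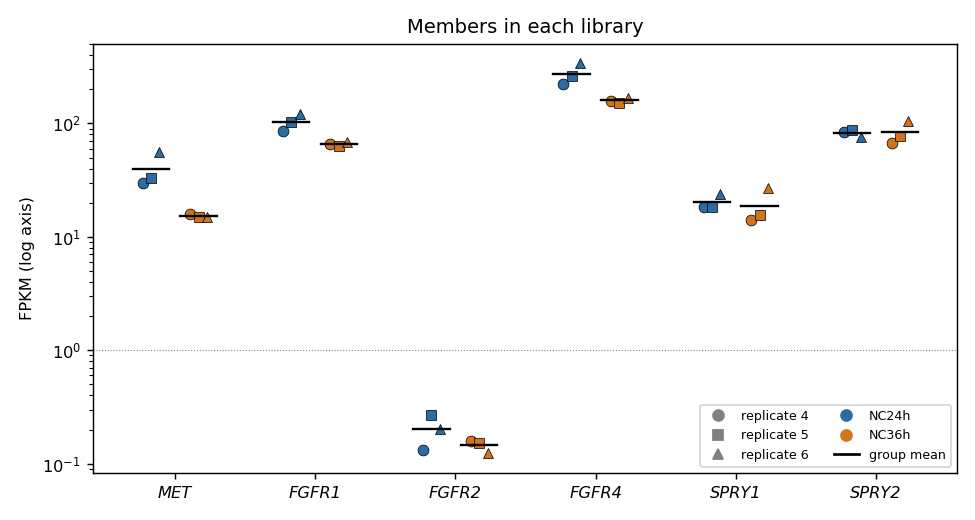
FPKM of the 6 members with a row (log axis) in each library, with NC24h in blue and NC36h in orange, replicates 4, 5 and 6 as circles, squares and triangles, group means as black lines, and a dotted line at 1 FPKM. MET, FGFR1 and FGFR4 separate into higher NC24h and lower NC36h values, while the groups of SPRY1 and SPRY2 overlap with NC36h replicate 6 as their highest library.

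The makeup of the FGF receptors was compared within each library, which does not depend on how libraries were scaled against each other. FGFR3, which is not a member, was added for this, at 0.808 to 0.983 FPKM at NC24h and 0.990 to 1.55 FPKM at NC36h. FGFR4 made up 72.0%, 71.5% and 73.4% of the summed FGFR1 to FGFR4 level in NC24h replicates 4, 5 and 6 and 70.4%, 70.1% and 70.7% in the NC36h libraries. The groups did not overlap, but the difference was only -1.89 percentage points, with an exact two-sided permutation p of 0.1, the smallest that 3 against 3 libraries can give. FGFR1 took 27.4% ± 0.962 at NC24h and 29.0% ± 0.345 at NC36h (SD, n = 3). FGFR3 took 0.238% ± 0.0365 and 0.550% ± 0.108 (exact permutation p = 0.1). The summed level of the 4 receptors, unlike the shares, does depend on how libraries were scaled. It went from 379.0 ± 75.4 to 226.4 ± 10.6 FPKM, with no overlap (exact permutation p = 0.1). The sum was not compared under other scalings.

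The log2 ratio of MET to FGFR1 was -1.53, -1.65 and -1.12 at NC24h and -2.04, -2.08 and -2.19 at NC36h. It was lower in every NC36h library, by 0.67 on average (difference -0.67, exact permutation p = 0.1). The NC36h mean was 0.387-fold the NC24h mean for MET and 0.634-fold for FGFR1, and NC24h replicate 6 had the highest ratio of MET to FGFR1. These shares and ratios compare levels per length of the gene models, which were 3776 bases for MET, 1981 for FGFR1, 1551 for FGFR4, 900 for FGFR2, 2848 for SPRY1 and 948 for SPRY2. How completely each model covers its transcript was not tested.

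**Figure D2:**
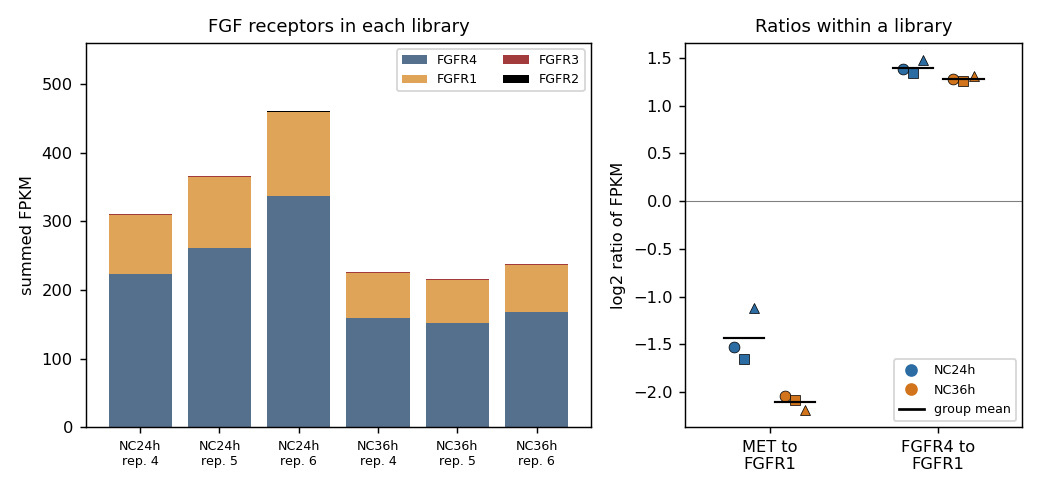
Left, stacked FPKM of FGFR4, FGFR1, FGFR3 and FGFR2 in each library, where FGFR4 and FGFR1 fill nearly the whole bar and the sum is lower in all 3 NC36h libraries. Right, log2 ratios of MET to FGFR1 and of FGFR4 to FGFR1 in each library (NC24h blue, NC36h orange, replicates 4, 5 and 6 as circles, squares and triangles, lines for group means), where MET to FGFR1 goes from -1.43 to -2.10 on average.

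Sprouty proteins are membrane-associated inhibitors of receptor tyrosine kinase signaling toward ERK, and Sprouty1 is known for its part in the quiescence of satellite cells. SPRY1 (ENSSSCG00000009083; chromosome 8, 100449476 to 100863780) stood at 18.3, 18.2 and 23.7 FPKM in NC24h replicates 4, 5 and 6 and at 13.9, 15.4 and 27.0 FPKM in the NC36h libraries. Replicates 4 and 5 of NC36h were the lowest of all 6 libraries and replicate 6 of NC36h was the highest, so the groups overlapped. The log2 change was -0.14 (SE 0.24, 95% interval -0.71 to 0.44, limma adjusted p = 0.651), which leaves room for changes in either direction.

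SPRY2 (ENSSSCG00000009482; chromosome 11, 52153695 to 52158766) stood at 84.7, 87.6 and 75.2 FPKM at NC24h and at 67.6, 77.0 and 104.9 FPKM at NC36h. Here too NC36h replicate 6 was the highest library and NC36h replicate 4 the lowest. The log2 change was -0.01 (SE 0.16, 95% interval -0.39 to 0.37, limma adjusted p = 0.965), with means of 82.5 ± 6.45 and 83.2 ± 19.4 FPKM (SD, n = 3). SPRY2 was the more abundant Sprouty gene in every library, and the log2 ratio of SPRY2 to SPRY1 overlapped between the groups, with 2.04 ± 0.330 at NC24h and 2.18 ± 0.197 at NC36h (exact permutation p = 0.5).

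Both Sprouty values moved with NC36h replicate 6. Its level was 1.84-fold the mean of NC36h replicates 4 and 5 for SPRY1 and 1.45-fold for SPRY2, but 0.963-fold for MET, 1.05-fold for FGFR1 and 1.08-fold for FGFR4. Ranked over the 14060 genes by how far this library exceeded replicates 4 and 5, SPRY1 was at place 134 and SPRY2 at place 353, while FGFR4 was at place 3795 and MET at place 8931. Without NC36h replicate 6 the log2 change was -0.42 for SPRY1 (adjusted p = 0.0532) and -0.19 for SPRY2 (adjusted p = 0.174), neither past the threshold. With both libraries numbered 6 left out, an alternative chosen after their values were seen, SPRY1 fell by 0.30 (adjusted p = 0.0199) and SPRY2 by 0.25 (adjusted p = 0.0364), beside 34.7% of all genes tested that were then lower. Under median-ratio scaling of all 6 libraries both changes were positive, at 0.03 for SPRY1 (adjusted p = 0.936) and 0.16 for SPRY2 (adjusted p = 0.453).

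**Figure D3:**
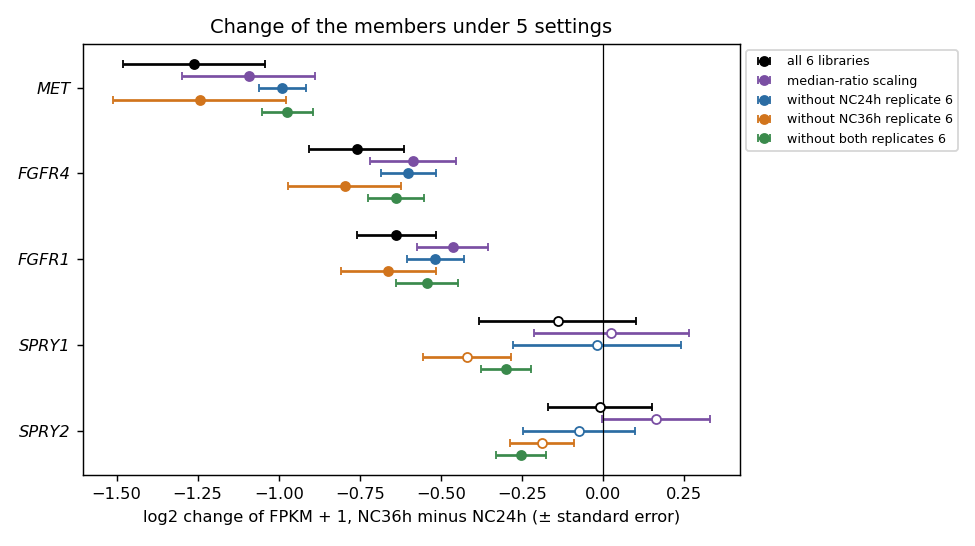
Log2 change of FPKM + 1, NC36h minus NC24h, of the 5 members tested (bars: standard error), with all 6 libraries, with median-ratio scaling, without either library numbered 6 and without both. Filled points passed a limma adjusted p of 0.05. MET, FGFR4 and FGFR1 are filled and below 0 in all 5 settings, whereas SPRY1 and SPRY2 are filled only with both libraries left out and lie above 0 with median-ratio scaling.

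In order of level, FGFR4 came first in both groups and FGFR2 last. At NC24h FGFR4 was followed by FGFR1 and SPRY2, whose ranges overlapped, then MET and then SPRY1, which did not overlap with their neighbours. At NC36h SPRY2 and FGFR1 overlapped next to it, and SPRY1 and MET overlapped below them. MET had thus moved from 1.97-fold above SPRY1 in mean FPKM to a level that could not be set apart from it.

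Across the 6 libraries, the 3 receptors followed each other and the Sprouty genes did not follow them. On the log2(FPKM + 1) scale, Pearson's r was 0.997 between FGFR1 and FGFR4, 0.989 between MET and FGFR4 and 0.981 between MET and FGFR1. It was 0.718 between SPRY1 and SPRY2 and between -0.134 and 0.418 for a receptor with a Sprouty gene. These are descriptions over 6 points that share the difference between the groups and the libraries' own state. The 3 genes with a symbol most like MET were ACAA2, SLC36A4 and CYBRD1, each with r = 0.999. For FGFR1 they included KIF15 and GABPB2, and for FGFR4 they were CENPT, PI4KA and QSOX1, also at 0.999. KIF15, a mitotic kinesin, and CENPT, a kinetochore protein, are cell division genes. For SPRY1 the closest were MRPL2 (r = 0.985), the kinase PLK2 (r = 0.968) and the transcription cofactor CITED2 (r = 0.963), and for SPRY2 they were SYS1 (r = 0.976), USP6NL (r = 0.966) and the matrix-associated growth factor CCN2 (r = 0.957).

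The other genes of the pathway were read from 5 lists of 81 symbols, of which 60 had a row and 48 were tested. In these lists 8 genes rose and 16 fell, beside 16.5% and 34.4% of all genes tested, and their median log2 change was -0.14 against -0.16 for all genes. Under median-ratio scaling 10 were higher and 9 lower, beside 23.9% and 22.3% of all genes, so the excess of falls over rises rests on the scaling. Of the 20 genes of the lists that met the rule for naming, 11 stayed past the threshold whichever library was left out. The other 9 lost the call without at least 1 library, with a limma adjusted p of up to 0.0705 for FGF9, 0.0798 for PLAU, 0.0593 for FRS3, 0.0582 for KSR1, 0.0537 for RPS6KA1, 0.0685 for BRAF, 0.0999 for NF1, 0.0715 for EGR1 and 0.0973 for JUNB. NC36h replicate 5 was the library, or one of the libraries, for all of them but EGR1.

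Of the ligands, receptors and cofactors, 17 of 24 had a row and 6 were tested. Among the latter, 1 was higher and 1 lower, beside 16.5% and 34.4% of all genes tested. Under median-ratio scaling 1 was higher and 0 lower, beside 23.9% and 22.3% of all genes. HGF, the ligand of MET, was between 0.0198 and 0.0788 FPKM at NC24h and reached at most 0.0593 FPKM at NC36h. FGF9 was the FGF ligand with the highest level among those with a row, which do not include FGF2, FGF5, FGF6, FGF7, FGF11 and FGF13. It stood at 12.0, 11.0 and 9.11 FPKM at NC24h and 15.9, 16.4 and 13.3 FPKM at NC36h. The groups did not overlap, and FGF9 rose by 0.47 on the log2 scale (SE 0.12, limma adjusted p = 0.0181), the opposite direction to MET, FGFR1 and FGFR4. PLAU, the urokinase protease that can activate pro-HGF, fell by 0.42 (adjusted p = 0.0217), a call lost under median-ratio scaling (-0.25, adjusted p = 0.137). FGF1, FGF10, FGF18 and FGF21 did not exceed 0.410 FPKM in any library.

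Of 12 adaptors tested, 1 rose and 6 fell, beside 16.5% and 34.4% of all genes tested, with a median log2 change of -0.23. Median-ratio scaling gave 2 rises and 3 falls, beside 23.9% and 22.3% of all genes. PTPN11, the phosphatase SHP2 that receptors need to activate RAS fully, stood at 111.7, 108.4 and 105.1 FPKM at NC24h and at 63.2, 60.3 and 65.7 FPKM at NC36h. It fell by 0.77 (SE 0.06, limma adjusted p = 0.000692). GAB1, the docking protein that MET binds, fell by 0.62 (adjusted p = 0.00155), from 9.88 ± 0.319 to 6.07 ± 0.357 FPKM, and CBL, the ubiquitin ligase that marks activated receptors for degradation, fell by 0.62 (adjusted p = 0.00312). FRS3, a docking protein of FGF receptors, rose by 0.71 (adjusted p = 0.0180). Its relative FRS2 fell by 0.28 (adjusted p = 0.0185), and under median-ratio scaling the falls of FRS2, SHC1 and SOS1 were no longer past the threshold.

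Of 10 genes of the RAS to ERK cascade, 3 rose and 4 fell, beside 16.5% and 34.4% of all genes tested. With median-ratio scaling 4 rose and 3 fell, beside 23.9% and 22.3% of all genes. Members of one kinase family went in different directions. ARAF stood at 90.8, 89.2 and 76.6 FPKM at NC24h and at 165.3, 172.9 and 157.3 FPKM at NC36h, a rise of 0.94 on the log2 scale (SE 0.08, limma adjusted p = 0.000760). BRAF, a kinase of the same step, fell by 0.48 (adjusted p = 0.0202) (limma), a call lost under median-ratio scaling (-0.32, adjusted p = 0.0569). The scaffold KSR1 rose by 0.72 (adjusted p = 0.0157) and the MEK gene MAP2K2 by 0.49 (adjusted p = 0.00536). The ERK substrate kinase RPS6KA1 fell by 0.61 (adjusted p = 0.0130), from 2.36, 2.89 and 3.37 FPKM in NC24h replicates 4, 5 and 6 to 1.38, 1.35 and 1.87 FPKM in the NC36h libraries, with no overlap.

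Of 8 other feedback inhibitors tested, 1 rose and 3 fell, beside 16.5% and 34.4% of all genes tested. Median-ratio scaling left 1 rise and 1 fall, beside 23.9% and 22.3% of all genes. IL17RD, also called SEF, an inhibitor of FGF signaling at the membrane, stood at 50.8, 55.2 and 82.4 FPKM at NC24h and at 36.6, 35.8 and 33.2 FPKM at NC36h. It fell by 0.79 (SE 0.17, limma adjusted p = 0.00994), with its highest value in NC24h replicate 6, the same library as for MET, FGFR1 and FGFR4. Without that library IL17RD fell by 0.58 (adjusted p = 0.00142). The RAS inactivators NF1 (-0.43, adjusted p = 0.0350) and RASA1 (-0.34, adjusted p = 0.00838) also fell, but neither call held under median-ratio scaling (adjusted p = 0.115 and 0.0601). LRIG1, a membrane protein that promotes the loss of receptor tyrosine kinases, rose by 0.45 (adjusted p = 0.00521), from 8.04 ± 0.655 to 11.3 ± 0.533 FPKM. The Sprouty relative SPRED2 had a log2 change of -0.07 (adjusted p = 0.648).

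**Figure D4:**
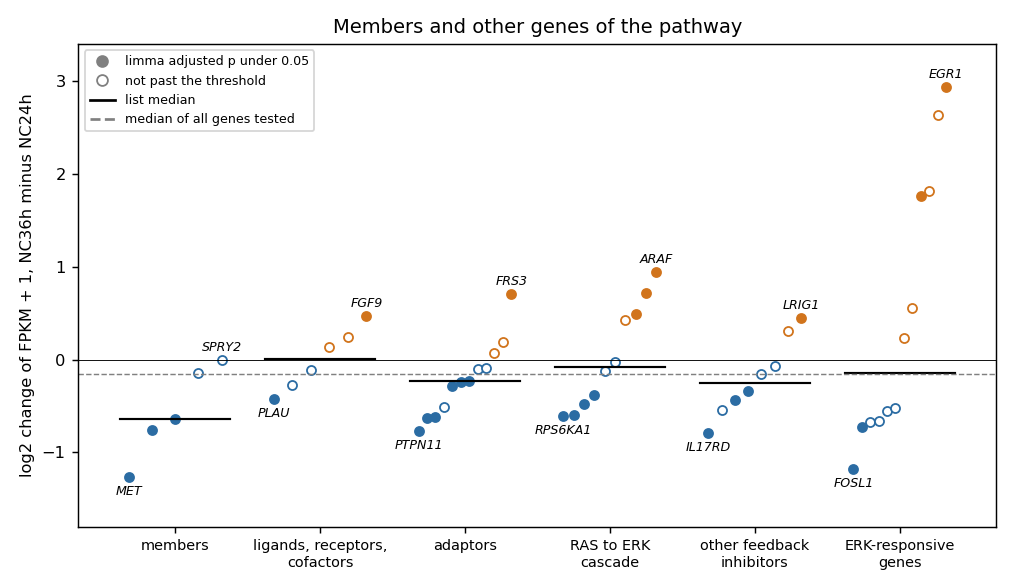
Log2 change of FPKM + 1, NC36h minus NC24h, of the members and of the 5 pathway lists, with 1 point per gene (orange above 0, blue below 0, filled where the limma adjusted p was under 0.05), black lines at list medians and a dashed line at the median of all genes tested, -0.16. The lowest and highest gene of each group is named, from MET at -1.26 to EGR1 at 2.94.

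Among 12 ERK-responsive genes tested, 2 rose and 2 fell, beside 16.5% and 34.4% of all genes tested. With median-ratio scaling 2 rose and 2 fell, beside 23.9% and 22.3% of all genes. NC36h replicate 6 set many of the values of these genes. FOS, first of all 14060 genes in how far NC36h replicate 6 exceeded replicates 4 and 5, stood at 4.25, 4.64 and 1.81 FPKM at NC24h and at 7.47, 9.27 and 228.3 FPKM at NC36h. EGR1 stood at 16.6, 14.6 and 13.9 FPKM at NC24h and at 47.8, 64.6 and 568.6 FPKM at NC36h. In both genes NC36h replicate 6 was far above replicates 4 and 5, 27.3-fold for FOS and 10.1-fold for EGR1. FOS did not pass the test between the groups. Its log2 change was 2.63 (SE 1.21, 95% interval -0.25 to 5.52, limma adjusted p = 0.1095). Without NC36h replicate 6 it was 1.09 (limma adjusted p = 0.0410).

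EGR1 rose by 2.94 (SE 0.86, limma adjusted p = 0.0278). Leaving out NC36h replicate 6 gave a rise of 1.83 (adjusted p = 0.00287). JUNB rose by 1.77 (adjusted p = 0.0477), and by 0.99 without that library (adjusted p = 0.00559). Without NC24h replicate 6, neither EGR1 (2.88, adjusted p = 0.0518) nor JUNB (1.66, adjusted p = 0.0918) passed, and neither did without NC24h replicate 4 or 5. FOSL1, a FOS relative that ERK signaling raises, fell by 1.17 (adjusted p = 0.00674), and the receptor gene EPHA4 by 0.73 (adjusted p = 0.00899).

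In 10 of the 12 ERK-responsive genes NC36h replicate 6 was above replicates 4 and 5 of its group, and in 6 of them at least 2-fold, beside 39.1% and 0.775% of all genes tested. NC24h replicate 6 was above replicates 4 and 5 of its own group in 9 of the 12, and in 3 of them at least 2-fold, beside 50.5% and 1.89% of all genes tested. These and the following genes were named after their values were seen. MYC stood at 24.7, 28.3 and 29.9 FPKM at NC24h and at 9.62, 11.0 and 44.4 FPKM at NC36h, so that only its NC36h replicate 6 lay above the NC24h libraries. The log2 change of MYC was -0.67 with all libraries (limma adjusted p = 0.315) but -1.34 once that library was left out (adjusted p = 0.00287). DUSP1, an immediate-early phosphatase of ERK and of stress kinases, was 3.10-fold, IER2 6.68-fold and IER3 2.54-fold above the mean of replicates 4 and 5. Without NC36h replicate 6, 4 ERK-responsive genes rose and 3 fell, beside 14.0% and 28.8% of all genes tested. SPRY1 and SPRY2 were thus highest in the library in which FOS, EGR1, JUNB, IER2, IER3, MYC and DUSP1 were highest. FOSL1, EPHA2, EPHA4, ETV1, ETV4 and ETV5 were instead highest in NC24h replicate 6. In that library SPRY1 was the highest of its group and SPRY2 the lowest, at 23.7 and 75.2 FPKM. The part of either library's state in the Sprouty values was not tested.

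**Figure D5:**
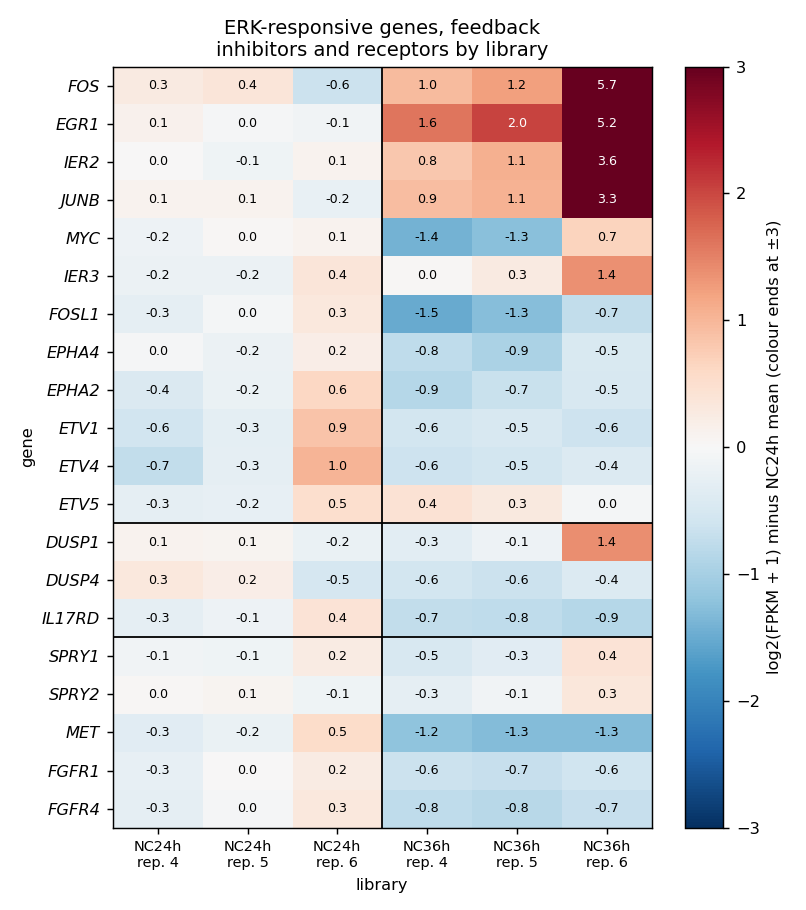
Log2(FPKM + 1) minus the NC24h mean in each library, for ERK-responsive genes (top), other feedback inhibitors (middle) and members (bottom), with red above and blue below the NC24h mean and the colour ending at 3 in either direction. NC36h replicate 6 is dark red from FOS to JUNB and is the highest NC36h library for SPRY1 and SPRY2, while MET, FGFR1 and FGFR4 are blue to a like degree in all 3 NC36h libraries.

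Proliferation and contractile genes were read as measures of the state of the libraries. Of 5 proliferation genes tested, 3 fell (TOP2A, CCNB1 and CDK1), beside 34.4% of all genes tested. MCM2 (-0.36, limma adjusted p = 0.260) and MCM5 (-0.255, adjusted p = 0.327) did not pass the test. All 5 were highest at NC24h in replicate 6, which was above both other libraries of its group in 50.5% of all genes. All 6 contractile genes with a row rose, beside 16.5% of all genes tested. All 6 were lowest at NC24h in replicate 6, and the share of all genes lowest there was not counted. CKM, TNNT3 and TTN of the contractile list had no row, nor had MKI67, CCNA2 and PCNA of the proliferation list. TOP2A fell by 2.53 (limma adjusted p = 0.00208), from 22.5 ± 12.4 to 2.75 ± 0.572 FPKM. At NC24h replicate 6 was 2.34-fold the mean of replicates 4 and 5 for TOP2A, 1.78-fold for MET, 1.39-fold for FGFR4 and 1.28-fold for FGFR1. Without that library each of the 3 receptors passed the threshold. So did TOP2A (-2.13, limma adjusted p = 0.000657), CCNB1 (-2.27, adjusted p = 0.000418) and CDK1 (-1.49, adjusted p = 0.00156). The part of cell cycle state in the receptor levels was not tested.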

How the data were processed

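The 6 RNA-seq libraries of NC siRNA cells were analysed. The authors deposited FPKM values per gene and library, none pooled. The methods of the study name HISAT2, StringTie and HTSeq on Sscrofa11.1, whereas the submitters' processing notes list TopHat2, Cufflinks and HTSeq, and strandedness is not given in the sources used here. log2(FPKM + 1) was fitted over the whole table with limma 3.58.1 in R 4.3.3 (two-sided, eBayes with a mean-variance trend), keeping genes whose mean was at least 1 FPKM, with Benjamini-Hochberg adjustment and a threshold of 0.05. Changes on this scale understate those of genes with low FPKM. Whole fragments behind the FPKM values were recovered for all 19543 genes above 0 in at least 3 libraries (tolerance 0.01). The fit and the recovery were tested on simulated data. Shares and ratios were compared by exact permutation tests over libraries. Symbols were paired with 11804 of 25322 Ensembl identifiers, and positions are those of RefSeq. In RefSeq, FGFR4 overlaps the microRNA gene MIR7138 and SPRY1 overlaps LOC106504731, whose fragments cannot be told apart here.

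The members and lists were chosen with earlier results of these data known. Named are all members with a row, up to 3 rises and 3 falls per pathway list past the threshold without overlap between the groups, proliferation and contractile genes, and the 3 genes most like each member tested. Some genes under this rule are not reported here. Other genes of the lists, and those high in NC36h replicate 6, were named outside this rule, after their values were seen. Alternatives were other pseudocounts, filters and scalings, eBayes without trend, a replicate block, voom on recovered fragments and leaving out libraries. The promoter motif search was not run, since no sequences were at hand.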

Additional observations from a re-analysis of the deposited data

How the results depend on the processing

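MET, FGFR1 and FGFR4 stayed lower and past the threshold under all 16 alternatives, with log2 changes from -1.43 to -0.97, from -0.76 to -0.46 and from -0.90 to -0.59. The count of lower members was 3 in 15 alternatives and 5 with both libraries numbered 6 left out, which added SPRY1 (-0.30) and SPRY2 (-0.25). The sign of the Sprouty changes was not fixed by these data. Median-ratio scaling gave 0.026 for SPRY1 and 0.163 for SPRY2, and leaving out 1 library gave -0.419 to 0.034 for SPRY1 and -0.187 to 0.126 for SPRY2, in each case from without NC36h replicate 6 to without NC36h replicate 4. Beside 8 rises and 16 falls in the pathway lists, median-ratio scaling gave 9 falls. Leaving out 1 library gave between 4 and 10 rises and between 9 and 18 falls, with the lowest counts (4 and 9) without NC36h replicate 5 and 5 rises without NC24h replicate 5. The cause was not tested.

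The replicate numbers were not taken to pair the libraries, since the deviations of same-numbered libraries correlated at 0.146, -0.0165 and 0.178 for numbers 4, 5 and 6. With the replicate block, 3 members were lower, and the pathway lists had 10 rises and 16 falls. The FGFR4 share differed by -1.89 points, with an exact permutation p of 0.25 in the blocked test, the smallest that test can give. With 1 library left out the share differed by -2.30 to -1.34 points. Depth limits FGFR2, HGF and the other genes under 1 FPKM, and 3 libraries a group limit the unblocked exact tests to p of 0.1 or more.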

Other observations

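Among the genes with a symbol, ranked by the excess of NC36h replicate 6 over replicates 4 and 5 of the same group and named after their values were seen, FOS and EGR1 came first. They were followed by ATF3, a stress-induced transcription factor, at 10.8, 11.5 and 116.4 FPKM in NC36h replicates 4, 5 and 6. OTUD1, a deubiquitinase, stood at 63.2, 63.6 and 571.7 FPKM, EGR2 at 0.873, 0.976 and 12.9 FPKM, and CCN1, a matrix-associated protein, at 48.8, 64.8 and 380.8 FPKM. PLK2, one of the 3 genes most like SPRY1 over the libraries, stood at 5.62, 6.18 and 31.8 FPKM. CCN2, one of the 3 most like SPRY2, stood at 93.7, 141.9 and 474.1 FPKM. The Sprouty genes moved far less in the same library, with SPRY1 at 13.9, 15.4 and 27.0 FPKM and SPRY2 at 67.6, 77.0 and 104.9 FPKM.

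ETV1, ETV4 and ETV5, ETS factors known as targets of FGF signaling, had their highest values in NC24h replicate 6, the library in which MET, FGFR1 and FGFR4 were also highest. That library was above both others of its group in 50.5% of all genes tested. A link between these factors and the receptors was not tested. ETV1 stood at 4.68, 5.90 and 14.2 FPKM at NC24h and at 4.72, 5.08 and 4.49 FPKM at NC36h, and ETV4 at 3.08, 4.60 and 12.7 FPKM and at 3.43, 3.64 and 4.08 FPKM. ETV5 stood at 1.60, 1.64 and 3.43 FPKM at NC24h and at 3.24, 2.82 and 2.02 FPKM at NC36h. None of the 3 passed the test between the groups (limma adjusted p = 0.218 for ETV1, 0.315 for ETV4 and 0.456 for ETV5). Without NC24h replicate 6 the log2 changes of ETV1 and ETV4 were -0.12 and -0.02, which did not pass either (adjusted p = 0.398 and 0.919), whereas ETV5 rose by 0.48 (adjusted p = 0.0461). With both libraries numbered 6 left out ETV5 rose by 0.62 (adjusted p = 0.00744).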
